A study of Sus scrofa with 12 samples.

Results

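The genes described here copy chromosomal DNA in S phase: 58 genes named for origin licensing and firing, the replication fork, nucleotide supply, chromatin assembly and their E2F regulators, out of 29150 loci measured. A gene was taken at the locus that carries its name or identifier, and where several loci carry it, at the one with the highest mean count. Of the 58 genes, 47 had such a locus. GINS1, POLA2 and RRM2 stood under an Ensembl identifier and are described beside the 47 but not counted with them. MCM7, MCM8, TIMELESS, POLD1 and POLE2 lay in loci joined with another gene. MCM5, DSCC1 and E2F1 had no locus under this rule and were not analysed here.

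Total RNA was sequenced from 1 left ovary of each of 12 gilts (female pigs that have not farrowed), purebred New French Yorkshire animals from 1 farm. The 6 ES gilts had consecutive estrus cycles on record and were slaughtered in the third estrus. The 6 NES gilts had no estrus on record, and each was a littermate of an ES gilt. Estrus detection began at 165 days of age in both groups. The age at slaughter and the follicular stage of the NES ovaries are not given, no allele or drug is named for either group, and the labels do not say which library numbers are sisters.

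Before a cell divides, the origin recognition complex marks start sites on DNA, and CDC6 and CDT1 load the ring-shaped MCM helicase there. In S phase CDC45 and the GINS complex switch the ring on, primase and the polymerases copy both strands, and the sliding clamp PCNA holds the polymerases on the template. E2F transcription factors raise the RNA of many of these genes at the start of S phase. In the ovary, the granulosa cells of growing follicles divide fast and leave the cell cycle after the ovulatory surge of luteinising hormone.

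The libraries held 58140547 to 68961955 counts. Levels of 1 gene across libraries are given as CPM, its counts scaled to library size with TMM factors, and levels of different genes are compared as the authors' FPKM, which are divided by length too. A count of 0 allowed up to 3 counts, or 0.0435 to 0.0516 CPM, for counting error only. The ovarian label was checked on marker genes: the granulosa receptor FSHR ranged over 9.28 to 54.8 CPM in ES and 41.5 to 97.3 CPM in NES, and the oocyte coat gene ZP3 over 1.04 to 6.73 CPM in ES and 2.56 to 5.11 CPM in NES. The libraries hold a whole organ, so fewer dividing cells and less of each RNA per cell cannot be told apart.

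Most replication genes had lower levels in ES ovaries than in NES ovaries, and the median difference was negative in each step of replication. Of the 46 members with a mean FPKM of at least 0.5, 45 had a negative log2 difference, with a median of -0.67 against 0.043 over all 20421 loci tested. PCLAF, ORC1, CLSPN, PRIM1, GINS2 and POLA1 fell in ES (edgeR quasi-likelihood test, Benjamini-Hochberg adjusted p under 0.05 over all loci), to 21.8 to 64.2% of their NES levels. These 6 are 13.0% of the members tested, where 0.793% of all loci were called lower. The members were chosen with earlier results of these data known, so setting these shares side by side is not a test. No member was called higher, where 0.152% of all loci were, and CDC45 alone had a positive log2 difference, which turned negative in 5 alternative fits. A further 16 members had adjusted p-values between 0.05 and 0.1. CLSPN, and GINS4, MCM10 and E2F2 among the members not called, passed the expression minimum only through NES. In the fit without that minimum 46 of 47 members had a negative log2 difference, with a median of -0.68.

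The number of members called lower turned on single libraries, and so did the number of calls over all loci, in both directions together. It was 25 without NES6 and 20 without ES1, 1 without ES3 or without ES5, and 0 without any one of ES2, ES4, ES6, NES1, NES2, NES3, NES4 and NES5. Over all loci 193 were called with the 12 libraries, 415 without NES6, 278 without ES1, 85 without ES3, 68 without ES5, and 0 or 1 without any other library. In those fits 31 to 36 members were lower in ES at an unadjusted p under 0.05, as were 35 with all 12 libraries, where 6.79% of all loci were. Without the expression minimum edgeR called 1 member lower, PRIM1, with adjusted p-values of 0.0522 to 0.0661 for the other called members, and 28 loci in all. Without both ES3 and ES6 it called 0 members and 1 locus in all. DESeq2 called 26 members lower and 1055 loci in all, and limma on log2(FPKM + 0.5) called 18 members lower and 330 loci in all. In each of the 12 fits without 1 library, 45 or 46 of the 46 members had a negative log2 difference.

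**Figure D1:**
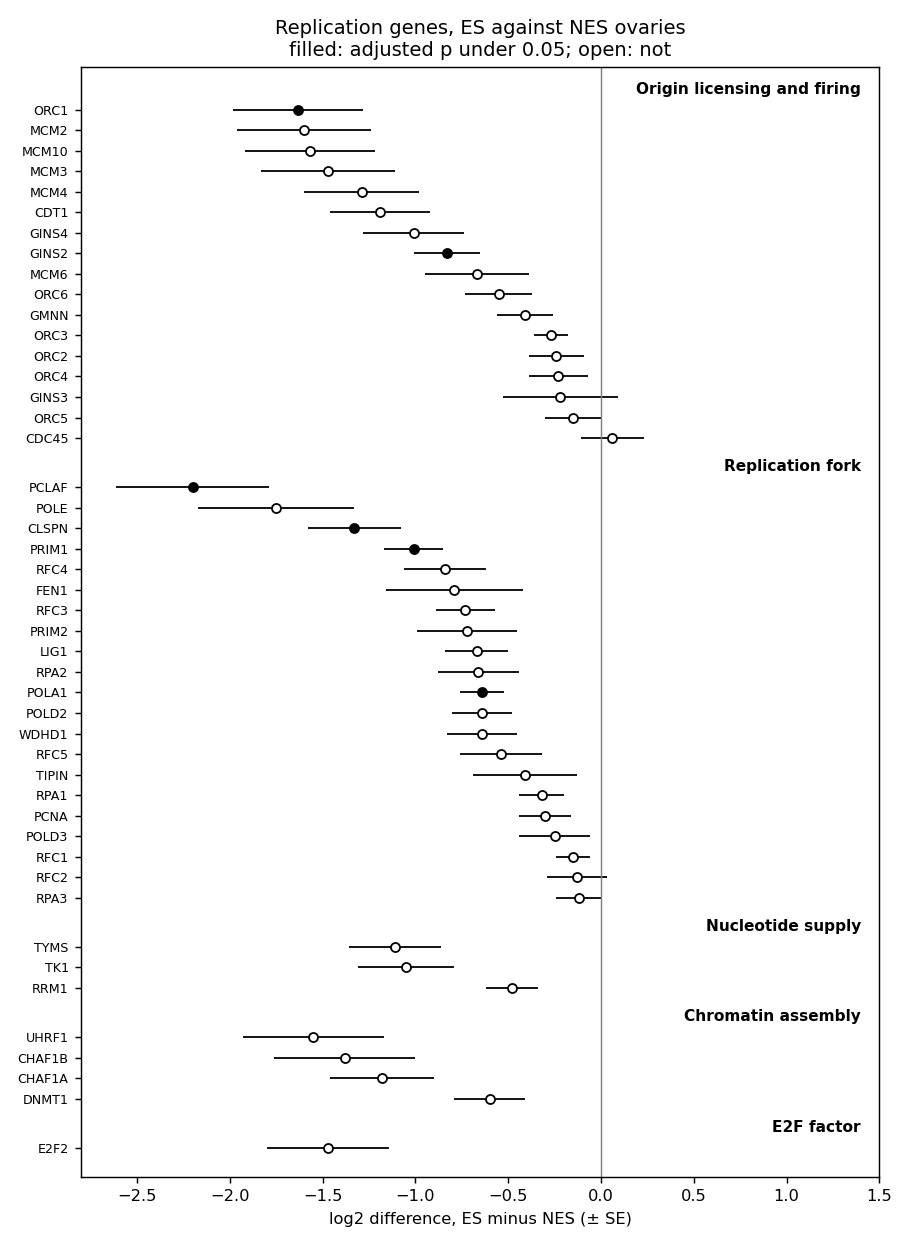
Log2 difference in level, ES minus NES, with its SE for the 46 tested members (6 libraries a group), by step and sorted by size. Filled points are the 6 members with an adjusted p under 0.05; all points except CDC45 (0.06) lie left of 0, from -0.12 for RPA3 to -2.20 for PCLAF.

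Origin licensing and firing had 17 tested members, of which 2 fell and 15 did not pass the test, with a median log2 difference of -0.67. ORC1 (MSTRG.20065, chromosome 6, 159819297 to 159852307, build Sscrofa11.1), the largest subunit of the origin recognition complex and the one whose level follows the cell cycle in human cells, ranged over 1.39, 2.69 and 5.51 CPM in ES (lowest, median, highest) and over 3.54, 9.08 and 14.6 CPM in NES. ES1 was the highest ES library and NES6 the lowest NES library, and only these 2 overlapped. ORC1 fell to 32.4% of its NES level, a log2 difference of -1.63 ± 0.35 (SE, n = 6 each; edgeR adjusted p = 0.0487). PRPF38A on the other strand overlaps it with over 3 times its count, and the strand setting of the counting is not given.

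The other 5 subunits, which form the complex with ORC1, had log2 differences nearer 0, and none passed (edgeR adjusted p = 0.167 to 0.684). Median levels were 2.33 CPM in ES and 3.56 CPM in NES for ORC6 (difference in log2 -0.55), and 31.8 CPM in ES and 38.4 CPM in NES for ORC3 (difference in log2 -0.27). ORC2 had medians of 14.9 CPM in ES and 16.5 CPM in NES (difference in log2 -0.24) and ORC5 of 15.3 CPM in ES and 16.5 CPM in NES (difference in log2 -0.15). ORC4, with medians of 376 CPM in ES and 449.8 CPM in NES (difference in log2 -0.23), has an implied locus length of 84.6 kb, and its CPM cannot be set beside those of shorter loci. Whether ORC1 differed more than these subunits was not tested.

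CDT1 and CDC6 load the MCM ring on the origins that the recognition complex has marked. CDT1 ranged over 2.87, 4.93 and 8.67 CPM in ES and 6.80, 13.0 and 16.5 CPM in NES, with a log2 difference of -1.19 ± 0.27 that did not pass (edgeR adjusted p = 0.0615). ES1 and ES6 reached above NES6, and the other ES libraries were below every NES library. CDC6 (mean FPKM 0.329) lay under the expression minimum and was not among the 46 tested. Its levels were 0.913, 1.45 and 2.60 CPM in ES and 1.74, 3.84 and 5.88 CPM in NES, with 4 ES libraries below every NES library. In the fit without that minimum CDC6 had a log2 difference of -1.23 ± 0.31 (edgeR adjusted p = 0.105). GMNN encodes geminin, which binds CDT1 and stops a second round of loading. It had medians of 4.83 CPM in ES and 5.96 CPM in NES and a log2 difference of -0.41 (edgeR adjusted p = 0.204).

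The MCM ring is the core of the replicative helicase. MCM2 (MSTRG.5734, chromosome 13, 72629882 to 72650725) ranged over 7.44, 12.4 and 29.1 CPM in ES and over 15.2, 43.7 and 68.0 CPM in NES. All ES libraries but ES1 were below every NES library. The log2 difference of MCM2 was -1.60 ± 0.36 (edgeR adjusted p = 0.0564). MCM3 had medians of 12.6 CPM in ES and 38.6 CPM in NES (difference in log2 -1.47, edgeR adjusted p = 0.0702), and MCM4 of 7.39 CPM in ES and 24.0 CPM in NES (difference in log2 -1.29, edgeR adjusted p = 0.0695). In both, ES1 was again the only ES library above NES6, the lowest of NES. MCM6 had medians of 30.9 CPM in ES and 55.6 CPM in NES (difference in log2 -0.67, edgeR adjusted p = 0.268), with ES4 the highest ES library at 61.1 CPM. The joined locus of MCM7 and TAF6 had a log2 difference of -0.40 (edgeR adjusted p = 0.0943), which cannot be given to MCM7 alone, and that of MCM8, a paralog outside the ring, with TRMT6 had -0.34.

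Among the genes that activate the ring, GINS2 fell (MSTRG.17804, chromosome 6, 3218662 to 3250361). It ranged over 9.87, 13.0 and 17.4 CPM in ES and over 19.1, 23.6 and 29.1 CPM in NES, so the groups did not overlap. The log2 difference of GINS2 was -0.83 ± 0.18 (edgeR adjusted p = 0.0490). GSE1 overlaps it on the other strand with over 3 times its count. Its partner GINS4 had medians of 2.36 CPM in ES and 5.01 CPM in NES (difference in log2 -1.01, edgeR adjusted p = 0.0898). GINS3 had medians of 4.15 CPM in ES and 5.16 CPM in NES (difference in log2 -0.22, edgeR adjusted p = 0.775), with ES4 at 9.26 CPM above every other library. GINS1, read under its identifier, ranged over 6.62, 7.76 and 13.6 CPM in ES and 7.23, 22.1 and 39.5 CPM in NES (difference in log2 -1.39, edgeR adjusted p = 0.0654).

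MCM10 and CDC45 both act when the helicase starts to unwind. MCM10 ranged over 2.50, 4.00 and 9.00 CPM in ES and 5.08, 14.0 and 20.2 CPM in NES (difference in log2 -1.57 ± 0.35, edgeR adjusted p = 0.0528). CDC45 ranged over 53.1, 66.2 and 108 CPM in ES and 60.5, 64.6 and 82.0 CPM in NES. ES3 held the highest value, and without ES3 the log2 difference of CDC45 was -0.10 where it was 0.06 with all libraries. The CDC45 locus lies under a joined locus on the other strand with over 3 times its count, and the strand setting of the counting is not given.

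The replication fork had 21 tested members, all with negative log2 differences (median -0.64), of which 4 fell and 17 did not pass. PCLAF (MSTRG.781, chromosome 1, 107659435 to 107669476), a small protein that binds the PCNA clamp, had the largest difference among the members. It ranged over 1.74, 2.85 and 5.59 CPM in ES and over 4.00, 13.5 and 27.9 CPM in NES. ES1 was the highest ES library and the only one above NES6. PCLAF fell to 21.8% of its NES level, a log2 difference of -2.20 ± 0.41 (edgeR adjusted p = 0.0390).

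For PCNA itself the locus with the highest count does not hold an annotated PCNA transcript. It is an assembled transcript on the strand of CDS2, inside the CDS2 locus, and had medians of 35.8 CPM in ES and 47.1 CPM in NES (difference in log2 -0.30, edgeR adjusted p = 0.294). The annotated PCNA lies on the other strand in a joined locus (MSTRG.10145), picked here after the values were seen. That locus ranged over 36.7, 48.7 and 68.9 CPM in ES and 47.6, 67.0 and 104 CPM in NES (difference in log2 -0.47 ± 0.19, edgeR adjusted p = 0.245). Neither value can be given to PCNA alone.

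Primase lays the RNA primers that polymerase alpha extends, and 2 of its 3 tested members fell. PRIM1 (MSTRG.16868, chromosome 5, 22063427 to 22089441), the catalytic primase subunit, ranged over 5.15, 7.31 and 8.79 CPM in ES and over 11.4, 13.9 and 19.7 CPM in NES. No ES library reached the lowest NES library. The log2 difference of PRIM1 was -1.01 ± 0.16 (edgeR adjusted p = 0.0337). It was called in 14 of 24 alternative fits, against 11 of 24 for ORC1, GINS2, POLA1 and PCLAF and 10 of 23 for CLSPN. RFC3, not called in the main fit, was called in 10 of 24. POLA1 (MSTRG.24484, chromosome X, 20756201 to 21096912), the catalytic subunit of polymerase alpha, ranged over 13.4, 15.5 and 17.3 CPM in ES and over 18.2, 24.6 and 28.8 CPM in NES. The groups did not overlap, and POLA1 had a log2 difference of -0.64 ± 0.12 (edgeR adjusted p = 0.0390). PRIM2, the regulatory primase subunit, had medians of 5.47 CPM in ES and 10.1 CPM in NES (difference in log2 -0.72, edgeR adjusted p = 0.212), with ES4 highest in ES at 11.7 CPM. POLA2, read under its identifier, had medians of 8.23 CPM in ES and 15.8 CPM in NES (difference in log2 -0.85, edgeR adjusted p = 0.0673). The POLA2 locus lies on the same strand inside the longer joined locus of CAPN1, with a mean count of 800.1 against 5041.2 there, so its value may not be that of POLA2 alone.

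**Figure D2:**
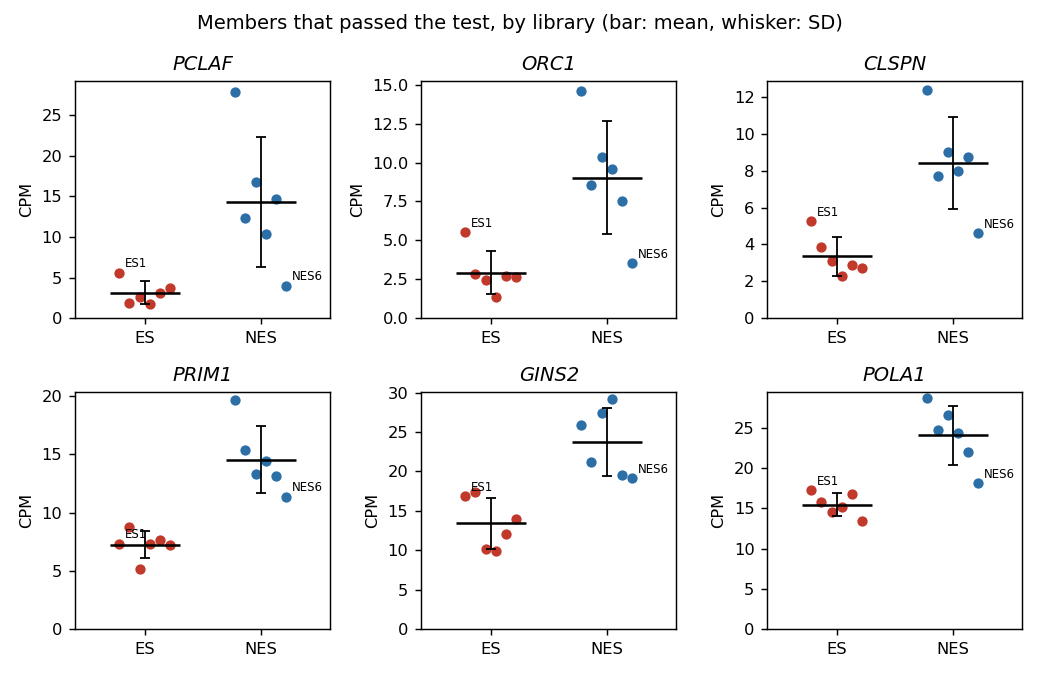
CPM in each library for the 6 members that passed the test, ES left and NES right, with the mean (bar) and SD (whisker) of 6 libraries; ES1 and NES6 are marked. The groups do not overlap for PRIM1, GINS2 and POLA1, and for PCLAF, ORC1 and CLSPN only ES1 reaches above NES6.

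The polymerases that copy the bulk of the DNA showed a wide span. POLE (MSTRG.6987, chromosome 14, 22798183 to 22853547), the catalytic subunit of polymerase epsilon on the leading strand, ranged over 5.83, 9.59 and 27.6 CPM in ES and over 14.0, 37.3 and 69.6 CPM in NES. ES1 was the only ES library above the lowest NES library. POLE had a log2 difference of -1.75 ± 0.42, second to PCLAF, and did not pass (edgeR adjusted p = 0.0662). It lies under a joined locus on the other strand with over 3 times its count. Of the accessory subunits of polymerase delta, POLD2 had medians of 5.17 CPM in ES and 8.79 CPM in NES (difference in log2 -0.64, edgeR adjusted p = 0.0714), and POLD3 of 8.81 CPM in ES and 12.8 CPM in NES (difference in log2 -0.25, edgeR adjusted p = 0.554). POLD1, the catalytic subunit of polymerase delta, lies in a locus joined with an unnamed gene. That joined locus fell and ranged over 11.6, 13.9 and 21.0 CPM in ES and 18.3, 34.8 and 58.3 CPM in NES (difference in log2 -1.23 ± 0.24, edgeR adjusted p = 0.0390). POLE2, in a locus joined with DNAAF2, had a log2 difference of -0.01 (edgeR adjusted p = 0.988). A joined locus of KLHDC2 overlaps it on the other strand, with a mean count of 332735.3 against 686.3 for the POLE2 locus. The strand setting of the counting is not given, so this value may not be that of POLE2.

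The clamp loader opens PCNA and closes it on the primer, and none of its 5 subunits passed. RFC3 ranged over 3.63, 4.26 and 4.50 CPM in ES and 4.63, 6.90 and 9.13 CPM in NES. Its groups did not overlap, and its log2 difference of -0.73 ± 0.16 had an edgeR adjusted p just over 0.05. RFC4 had medians of 2.83 CPM in ES and 5.03 CPM in NES (difference in log2 -0.84), and RFC5 of 3.57 CPM in ES and 6.08 CPM in NES (difference in log2 -0.54). RFC1, the large subunit, had medians of 49.1 CPM in ES and 54.5 CPM in NES (difference in log2 -0.15), and RFC2 of 10.2 CPM in ES and 11.7 CPM in NES (difference in log2 -0.13). The edgeR adjusted p-values of these 4 subunits were 0.0872 to 0.731.

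The RPA proteins coat single-stranded DNA, and none of the 3 passed. Medians were 7.10 CPM in ES and 11.4 CPM in NES for RPA2 (log2 -0.66), 26.3 CPM in ES and 31.6 CPM in NES for RPA1 (log2 -0.32), and 11.3 CPM in ES and 12.9 CPM in NES for RPA3 (log2 -0.12), with edgeR adjusted p-values of 0.178 to 0.649. FEN1, which trims the lagging-strand primers, had a log2 difference of -0.79 ± 0.37, with overlapping groups of 2.56 to 8.67 CPM in ES and 2.26 to 10.6 CPM in NES. LIG1, the ligase that joins lagging-strand fragments, had medians of 12.4 CPM in ES and 23.1 CPM in NES (difference in log2 -0.67 ± 0.17, edgeR adjusted p = 0.0825).

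The fork protection genes keep the helicase and polymerases together and signal stalled forks. CLSPN (MSTRG.19494, chromosome 6, 91903714 to 91941692), which encodes claspin, a mediator of the checkpoint kinase ATR, fell in ES. It ranged over 2.27, 2.99 and 5.25 CPM in ES and over 4.60, 8.36 and 12.4 CPM in NES, and ES1 and NES6 alone overlapped. The log2 difference of CLSPN was -1.33 ± 0.25 (edgeR adjusted p = 0.0388). Its mean of 0.553 FPKM over all libraries passed the minimum of 0.5 only through NES, with 0.298 FPKM in ES and 0.807 FPKM in NES, as was also so for GINS4, MCM10 and E2F2. Without the minimum CLSPN had an adjusted p of 0.0522 and was not called. WDHD1, which links polymerase alpha to the helicase, had medians of 10.8 CPM in ES and 17.8 CPM in NES (difference in log2 -0.64, edgeR adjusted p = 0.129). TIPIN, a partner of TIMELESS, had medians of 6.73 CPM in ES and 9.01 CPM in NES (difference in log2 -0.41, edgeR adjusted p = 0.502). The locus that joins TIMELESS with APOF had medians of 8.28 CPM in ES and 23.9 CPM in NES (difference in log2 -1.45, edgeR adjusted p = 0.0564).

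Nucleotide supply had 3 tested members and none passed, with a median log2 difference of -1.05. TYMS, which makes thymidylate, ranged over 3.46, 5.55 and 7.47 CPM in ES and over 5.79, 12.3 and 16.2 CPM in NES (difference in log2 -1.11 ± 0.25, edgeR adjusted p = 0.0600). TK1, the thymidine kinase of the salvage route, ranged over 12.8, 19.7 and 30.7 CPM in ES and over 19.9, 41.8 and 59.4 CPM in NES (difference in log2 -1.05 ± 0.26, edgeR adjusted p = 0.0740). In both, 3 of 6 ES libraries were below every NES library and all 6 were below the NES median. The large subunit of ribonucleotide reductase, RRM1, had medians of 34.5 CPM in ES and 50.0 CPM in NES (difference in log2 -0.48, edgeR adjusted p = 0.131). Its small subunit RRM2, known to be limited to S phase in dividing cells and read under its identifier, had a log2 difference of -1.38 (edgeR adjusted p = 0.138) and ranged over 5.02, 8.65 and 22.2 CPM in ES and 8.67, 27.2 and 41.0 CPM in NES.

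Chromatin assembly and maintenance methylation had 4 tested members and none passed, with a median log2 difference of -1.28. UHRF1, which finds hemimethylated DNA behind the fork, ranged over 6.22, 10.3 and 26.3 CPM in ES and over 12.6, 35.4 and 54.5 CPM in NES (difference in log2 -1.55 ± 0.38, edgeR adjusted p = 0.0704). CHAF1B, a subunit of the factor that places new histones, ranged over 1.22, 2.90 and 5.59 CPM in ES and over 3.32, 6.73 and 12.0 CPM in NES (difference in log2 -1.38 ± 0.38, edgeR adjusted p = 0.103). CHAF1A, its partner, had medians of 3.58 CPM in ES and 9.29 CPM in NES (difference in log2 -1.18, edgeR adjusted p = 0.0648). For these 3 genes ES1 was the highest ES library and the other 5 were below every NES library. DNMT1, the methyltransferase that UHRF1 recruits, had medians of 75.5 CPM in ES and 138 CPM in NES (difference in log2 -0.60, edgeR adjusted p = 0.148).

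E2F2, the E2F factor among the members with a locus, ranged over 1.71, 2.39 and 3.20 CPM in ES and over 2.18, 6.67 and 12.3 CPM in NES. NES6 lay inside the ES range, and every ES library was below the NES median. The log2 difference of E2F2 was -1.47 ± 0.33 (edgeR adjusted p = 0.0564).

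Some libraries stood high or low in most members. NES1 was the highest NES library in 37 of the 47 members with a locus and NES6 the lowest in 41. ES1 was the highest ES library in 25 and ES4 the lowest in 20. The geometric mean over the 47 was 7.99 to 12.3 CPM in ES, with ES1 highest, and 9.87 to 22.3 CPM in NES, with NES6 at 9.87 and the other 5 at 16.1 or more. NES6 was below the highest ES library in 43 of the 47 members. Every ES library was below every NES library for 4 members, PRIM1, GINS2, POLA1 and RFC3, where 0.906% of all loci tested showed this. No member had every ES library above every NES library, as 0.509% of all loci did.

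**Figure D3:**
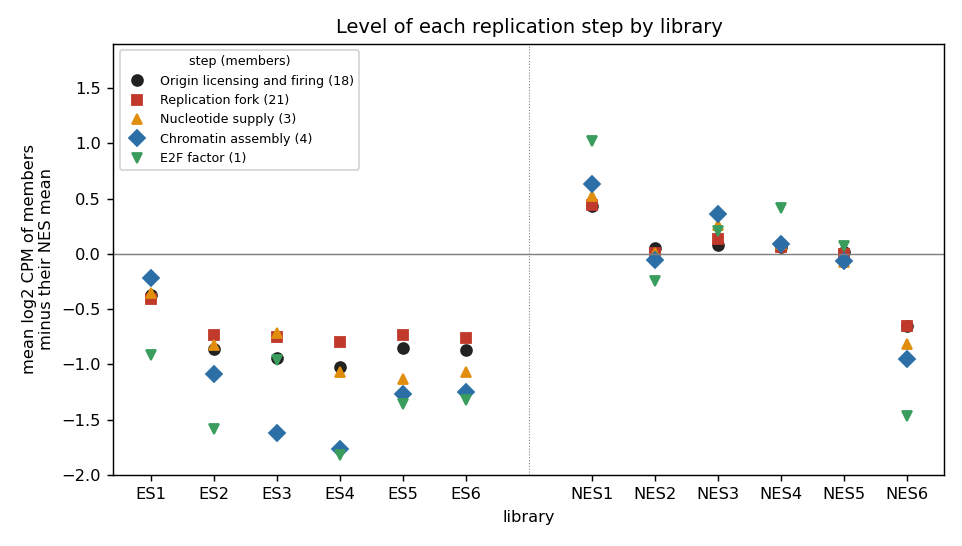
Mean log2 CPM of the members of each step in each library, relative to their mean over the 6 NES libraries (0 line). ES libraries are left and NES libraries right; ES1 stands highest in ES, and all steps lie lower in NES6 than in NES1 to NES5.

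On the length-corrected scale the subunits of a complex stood at unlike levels in both groups. MCM3 had the highest mean of the 4 ring subunits with a locus of their own, 2.82 ± 1.30 FPKM in ES (SD, n = 6 here and below) and 8.47 ± 3.32 FPKM in NES, and MCM4 the lowest, 1.20 ± 0.57 FPKM in ES and 3.21 ± 1.05 FPKM in NES. MCM2 stood at 2.31 ± 1.08 FPKM in ES and 7.62 ± 3.12 FPKM in NES, within 1 SD of MCM3 in both groups. MCM6 stood at 2.79 ± 1.03 FPKM in ES, about level with MCM3, and at 4.76 ± 1.85 FPKM in NES. The highest ring subunit exceeded the lowest by 2.35 times in ES and 2.64 times in NES. In the origin recognition complex this span was 6.76 times in ES and 3.00 times in NES. ORC1 had the lowest mean of the 6 subunits in ES, at 0.66 ± 0.27 FPKM, and the third lowest in NES, at 2.20 ± 0.91 FPKM, where its SD reached past both neighbours ORC5 and ORC2. ORC4 was the highest at 4.44 ± 1.25 FPKM in ES and 5.49 ± 0.68 FPKM in NES. Its implied length of 84.6 kb is about that of its whole locus (chromosome 15, 4096472 to 4178408). The FPKM of ORC4 may thus not be that of a spliced transcript, and the span of this complex rests on it. The implied length of RPA3, 6.92 kb, is also about that of its whole locus (chromosome 9, 77908981 to 77915591). Implied lengths were 16.6 kb for RFC1, 14.0 kb for ORC3 and 12.7 kb for MCM6. The order of subunits by FPKM rests in part on these assembled lengths. Among the clamp loader genes RFC1 was highest at 2.93 ± 0.29 FPKM in ES and 3.45 ± 0.35 FPKM in NES. RRM1 had the highest mean of all 47 members, 6.26 ± 0.50 FPKM in ES and 9.37 ± 2.06 FPKM in NES.

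**Figure D4:**
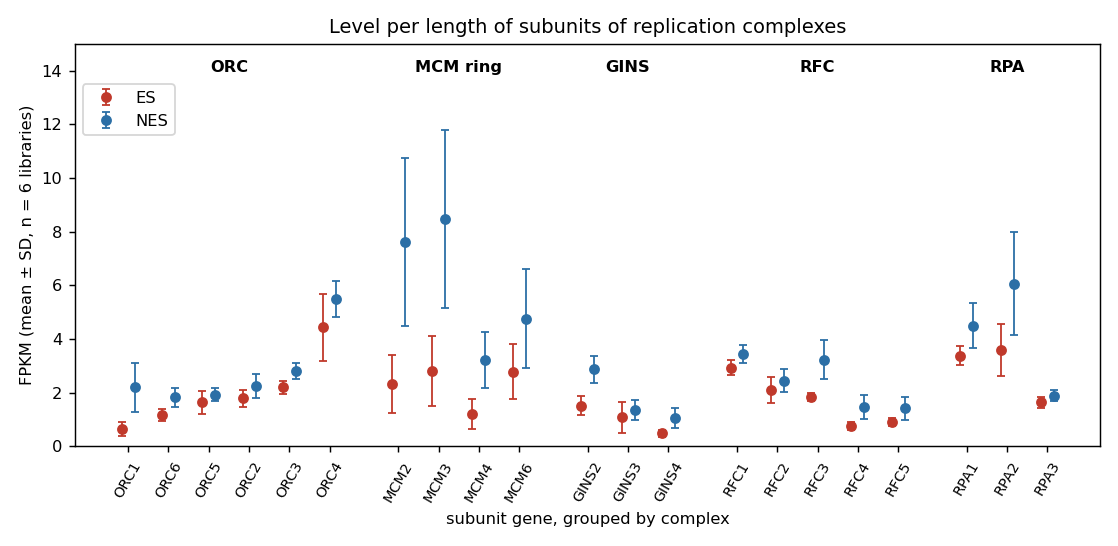
FPKM (mean ± SD, 6 libraries a group) of subunit genes in 5 replication complexes, ES left of NES for each gene. ORC1 averages 0.66 in ES and 2.20 in NES, and among the ORC subunits the whiskers of the groups overlap for ORC2, ORC4 and ORC5. The FPKM rest on the length of each assembled locus, which for ORC4 and RPA3 is about the whole locus.

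Another 53 replication genes were listed as company for the members, of which 38 had a locus and 36 were tested. Of these 36, 6 fell in ES, 0 rose and 30 did not pass, with a median log2 difference of -0.27 and 29 negative values. Over all loci tested 0.793% were called lower and 0.152% higher, the median was 0.043 and 43.8% of the values were negative. This list too was chosen with earlier results of these data known, so setting it beside all loci is not a test. CDC7, the kinase that fires licensed origins, ranged over 21.6, 34.3 and 45.0 CPM in ES and 55.3, 83.1 and 126 CPM in NES (difference in log2 -1.34 ± 0.24, edgeR adjusted p = 0.0371). HELLS, a chromatin remodeller needed for maintenance methylation, ranged over 7.78, 8.43 and 9.94 CPM in ES and 10.1, 17.6 and 18.8 CPM in NES (difference in log2 -0.91 ± 0.15, edgeR adjusted p = 0.0345). For CDC7 and HELLS no ES library reached the lowest NES library. The histone chaperone ASF1B ranged over 0.989, 1.87 and 3.10 CPM in ES and 2.33, 6.85 and 11.2 CPM in NES (difference in log2 -1.86 ± 0.37, edgeR adjusted p = 0.0406). ATAD5, which unloads PCNA, ranged over 2.83, 3.82 and 5.44 CPM in ES and 4.75, 9.49 and 14.5 CPM in NES (difference in log2 -1.26 ± 0.25, edgeR adjusted p = 0.0413). DTL and SKP2 mark CDT1 for destruction. DTL ranged over 3.36, 4.51 and 9.56 CPM in ES and 5.41, 16.0 and 24.8 CPM in NES (difference in log2 -1.56 ± 0.33, edgeR adjusted p = 0.0479), and SKP2 over 7.25, 8.17 and 9.74 CPM in ES and 9.46, 13.4 and 18.0 CPM in NES (difference in log2 -0.72 ± 0.15, edgeR adjusted p = 0.0439). In these last 4 genes the highest ES library lay above the lowest NES library. ASF1B, at 0.402 FPKM in ES and 1.57 FPKM in NES, and ATAD5, at 0.447 FPKM in ES and 1.15 FPKM in NES, passed the expression minimum only through NES. Without the minimum HELLS alone of these 6 genes was called, with edgeR adjusted p-values of 0.0503 to 0.0639 for the others.

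The count of 6 was 11 without NES6, 10 without ES1, 2 without ES3 or without ES5, and 0 without any other single library. Chosen after their values were seen, DBF4, the activating partner of CDC7, had a log2 difference of -0.12, the retinoblastoma gene RB1 0.08 and the E2F partner TFDP1 -0.19, and none of these passed (edgeR adjusted p = 0.566 to 0.721). Of the 7 genes of this list with positive log2 differences, POLD4 (0.61) and SAMHD1 (0.51) had the largest. Neither passed (edgeR adjusted p = 0.292 for POLD4 and 0.291 for SAMHD1).

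Marker genes of ovarian cell types varied beside these results, and their part in the differences was not tested. The summed level of the 14 granulosa markers tested was 681 to 11417 CPM in ES and 1715 to 4976 CPM in NES. ES1 was highest in ES, with 4486 CPM of BMPR1B and 3533 CPM of INHA. NES2 was lowest in NES, and NES6 stood at 1794 CPM. Of these 14, IHH alone fell (log2 -3.01) and 0 rose, while 9 had positive and 5 negative log2 differences (median 0.15). Of the 9 theca markers HHIP, GLI1 and PTCH1 fell (log2 -2.37, -1.94 and -1.86), with sums of 1090.1 to 3305 CPM in ES and 1828 to 3275 CPM in NES. No marker of the remaining lists was called. The log2 difference was positive for all 8 luteal markers tested (median 1.23), all 10 macrophage markers (median 1.14), all 5 lymphocyte markers (median 1.02), all 5 epithelial markers (median 2.04) and all 9 endothelial markers (median 0.29), opposite in sign to nearly all replication members. Of all 20421 loci tested, 11469 had a positive log2 difference. With limma on log2(FPKM + 0.5) the luteal markers LHCGR (-0.11) and HSD11B1 (-0.02) turned negative. So did the endothelial markers KDR (-0.01) and EMCN (-0.03). LHCGR was counted in both the theca and the luteal list. The luteal sums were 708 to 5296 CPM in ES, with ES1 highest, and 668 to 961 CPM in NES. The macrophage sums were 80.8 to 1115 CPM in ES, with ES3 highest, and 61.6 to 164 CPM in NES, and the epithelial sums 9.29 to 230.5 CPM in ES, with ES6 highest, and 3.05 to 17.2 CPM in NES. The lymphocyte sums were 5.30 to 23.2 CPM in ES and 4.74 to 9.12 CPM in NES, and the endothelial sums 693 to 1042 CPM in ES and 493 to 1083 CPM in NES, with NES6 highest. Of the 7 oocyte markers 6 had negative log2 differences (median of the 7 -0.15). Their sums, 235 to 1620.2 CPM in ES and 244 to 457 CPM in NES, were mostly KIT, at 205 to 1571 CPM in ES and 201 to 424 CPM in NES, and KIT alone had a positive log2 difference (1.00, edgeR adjusted p = 0.317). No marker gene was at 0 in every library.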

How the data were processed

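RNA of 12 left ovaries (6 ES, 6 NES) was extracted with Trizol, cleared of rRNA and turned into libraries that mark the strand with dUTP, per the labels' protocols. Tools named in the submitters' processing notes are cutadapt, FastQC, HISAT2 and TopHat, with build Sscrofa11.1. How reads were counted, on which strand and against which annotation was not given in the sources used here. Raw counts and FPKM values per locus were deposited by the authors, per the file headers, with 58140547 to 68961955 counts a library.

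Groups and numbers came from the sample titles. All 20421 loci of 29150 that averaged 0.5 FPKM or more were tested on the deposited counts with edgeR 4.0.16 (quasi-likelihood, TMM, no covariate; R 4.3.3), and p-values were adjusted over all of them by the Benjamini-Hochberg method, with calls under 0.05. The SE is the size of the log2 difference divided by the square root of F. Alternatives were other scalings and filters, DESeq2 1.42.0, limma 3.58.1 on log2(FPKM + pseudocount), a robust fit, a replicate block, summed rows and left-out libraries. The test was tried on simulated data. The lowest, median and highest values are given for every called member, for the 2 largest log2 differences in each step and for the called genes of the second list; other members given this way were added after their values were seen. Members and lists were chosen with earlier results of these data known.

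Symbols came from the table, or from a name table for bare Ensembl identifiers. RRM2 was named from the table's own description and the RefSeq gene at its position. Of the 47 loci, 23 overlap a locus of another name, GINS2, ORC1 and POLA1 among them, and 11 lie under an opposite-strand locus with over 3 times their count. Without a stated strand setting such reads cannot be told apart.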

Additional observations from a re-analysis of the deposited data

Results flagged for a closer look

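With 6 libraries a group, 15 of 94 groups (47 members in ES and in NES) held a library far from the others, with a gap to its neighbour above the critical share of the group's range. Chance flags about 1 in 20 groups, and members that move together are not independent. In 11 of the 15 the library was ES1, highest of ES. Its CPM was 5.51 for ORC1 (next highest 2.82), 29.1 for MCM2 (12.7), 28.2 for MCM3 (13.8), 20.1 for MCM4 (8.65), 4.06 for GINS4 (2.61) and 9.00 for MCM10 (4.47). It was 27.6 for POLE (11.8), 8.67 for FEN1 (4.55), 45.9 for RRM1 (36.4), 7.02 for CHAF1A (3.88) and 26.3 for UHRF1 (12.2). Others highest in ES were ES4 for PRIM2, at 11.7 CPM (5.86), ES3 for RFC2, at 15.6 CPM (10.3), and ES6 for RPA3, at 14.1 CPM (11.5). NES6 was lowest of NES for WDHD1, at 9.41 CPM (next lowest 16.6).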

How the results depend on the processing

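The median log2 difference of the members was -0.67 and stayed between -0.79 and -0.51 in all 24 alternative fits (-0.79 to -0.60 with a library left out), and 0 members were called higher in any. Counts of calls moved. Over all loci, 193 were called, 295 with upper-quartile factors, 28 with no filter, 1055 with DESeq2, 330, 322 and 337 with limma at pseudocounts of 0.5, 0.1 and 1, 0 with the replicate block and 1 without ES3 and ES6. The 6 members called lower became 13, 1, 26, 18, 17, 18, 0 and 0 in the same order of fits, and 7 with identifier and joined loci added, an alternative chosen after seeing the data. The 6 other replication genes called lower became 1 with no filter, 12 with DESeq2, 10 and 11 with limma at pseudocounts of 0.5 and 1, 0 with the block and 0 without ES3 and ES6. With 1 library left out these counts ranged over 0 to 415, 0 to 25 and 0 to 11. In the edgeR fits with 0 loci called, 2629 to 3625 had an unadjusted p under 0.05. CDC45 turned to -0.06, -0.06 and -0.05 with limma at 0.5, 0.1 and 1, to -0.10 without ES3 and to -0.05 without ES3 and ES6, where GINS3 turned to 0.07. The cause was not tested. Same-numbered ES and NES libraries had correlations of -0.07 to 0.289 in their deviations from the group means, and 2 of 6 correlated best with their own number, so the numbers were not used as pairs. With the replicate block 0 members were called, the 6 had adjusted p-values of 0.0787 to 0.14, and 36 members were lower at an unadjusted p under 0.05. CDC6, under the expression minimum, was tested only without a filter.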
